A study of Mus musculus with 9 samples.

Results

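The genes described here encode the membrane skeleton of the ankyrin, spectrin and protein 4.1 type, measured by RNA sequencing in ventricles of mice at postnatal day 7. They are 10 named genes of the 38293 in the count table, namely the ankyrins Ank1, Ank2 and Ank3, the spectrins Sptan1, Sptb and Sptbn1, the protein 4.1 relatives Epb41, Epb41l2 and Epb41l4b, and the glycophorin gene Gypc. They were put together because Ank1, Gypc and Epb41l4b were lower together in the mutant hearts of these same libraries. The difference between mutant and control was therefore part of the choice, and for these 10 genes it is given as a description, with no p-value. Where they are counted past a threshold, the count describes them and supports nothing.

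The series compares 5 control libraries, labelled Arid1a f/f control, with 4 mutant libraries, labelled aMHC-Cre;Arid1a f/f cKO (cKO). Both groups carry the floxed Arid1a gene, whose product belongs to the SWI/SNF chromatin remodelers, and only the cKO animals carry Cre recombinase under the cardiomyocyte promoter αMHC, so the gene stays intact in the other cells of the ventricle. Per the study's methods the pups were of both sexes and on a C57B/6 J background. The methods name 4 controls while the labels and a legend of the study give 5, and all 5 labelled libraries were used. The controls are littermates without Cre, so no group carried Cre alone, and a part of Cre itself cannot be told apart from the loss of Arid1a. The labels number the replicates but do not say that each is 1 animal, while the legend that gives 5 controls counts them as hearts. Errors and p-values measure the spread between these libraries.

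Spectrin is a long rod built from α and β chains that form a net under the plasma membrane, tied together by short actin filaments. Ankyrins hook this net to ion channels, transporters and adhesion proteins, and protein 4.1 ties spectrin and actin to glycophorins. The arrangement is best known from the red blood cell, where defects in ANK1, SPTB or EPB41 cause fragile cells and hereditary anemia. In heart muscle, ankyrin-B (Ank2) anchors transporters such as the sodium-calcium exchanger, ankyrin-G (Ank3) holds membrane proteins at the intercalated disc, and a small muscle form of Ank1 sits in the sarcoplasmic reticulum.

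Ank1 (ENSMUSG00000031543, GRCm38 chromosome 8, 22974844 to 23150497, plus strand) holds several products in 1 gene, which matters for reading its count. GENCODE M21 gives it 13 protein-coding transcripts and 4 coding starts, each shared by 3 transcripts. The coding bases from the start codon to the end of its exon, up to 90 bases, are printed for 3 of them to show how the forms part at their first residues, with the start codon in capitals. The coordinates of these stretches are, in the same order, chr8:23035231-23035245, chr8:23058632-23058670 and chr8:23139277-23139366.
Ank1-205: ATGggcttctgtaaa
Ank1-202: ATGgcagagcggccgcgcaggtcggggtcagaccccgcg
Ank1-201: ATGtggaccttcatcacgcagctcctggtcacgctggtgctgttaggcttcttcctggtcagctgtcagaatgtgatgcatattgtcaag
Transcripts from the first 2 of these starts have coding lengths between 5544 and 5661 bases. The last start gives products of 328 to 468 coding bases, of the size of the small muscle ankyrin. The table holds 1 count per library for the whole gene, so the share of each form was not measured here.

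Epb41l4b (ENSMUSG00000028434, chromosome 4, 56991972 to 57143437, minus strand) encodes a FERM-domain relative of protein 4.1 and had the largest difference of the 10 genes. It has 1 annotated coding start, used by 2 of its 3 protein-coding transcripts, and the first 90 coding bases lie at chr4:57143064-57143153 on the minus strand.
Epb41l4b-201: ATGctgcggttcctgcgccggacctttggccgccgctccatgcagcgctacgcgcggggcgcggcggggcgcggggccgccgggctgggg
The coding lengths from this start are 1581 and 2697 bases.

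Libraries held 31011055 to 40073801 counts, and 15318 genes had enough counts to be tested, all 10 membrane skeleton genes among them. The deleted gene, Arid1a, had a mean of 139.8 ± 8.84 CPM over the control libraries (SD, n = 5) and of 106 ± 5.44 CPM over the cKO libraries (SD, n = 4), where CPM is the count scaled to the normalized library size. On the log2 scale it fell by 0.39 (SE 0.06) with an adjusted p of 0.00132 in edgeR's quasi-likelihood test. The libraries also split by the count of the ribosomal protein gene copy Rps3a3 into a low set of 2 control and 3 cKO libraries, at 0.345 to 0.521 CPM, and a high set of 3 control libraries and 1 cKO library, at 99.7 to 112 CPM. The labels give no batch for this split, so the differences of the 10 membrane skeleton genes were also taken within both sets.

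In cKO hearts 3 genes of the membrane skeleton stood far lower, and the other 7 stayed within 1.5-fold of control. Ank1 was at 31.8% of its control mean, Gypc at 44.6% and Epb41l4b at 14.04%. The remaining ankyrins, both β spectrins, the α spectrin and the other protein 4.1 genes lay between 82.7% and 108% of control.

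**Figure D1:**
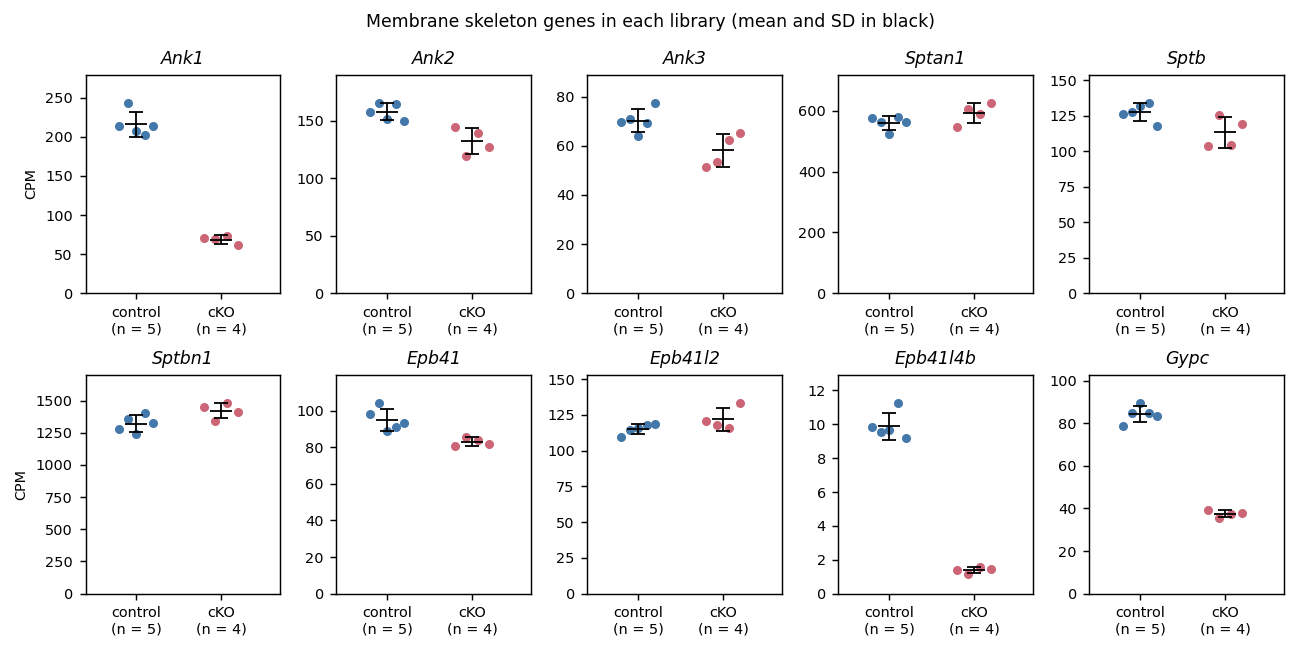
CPM of each of the 10 membrane skeleton genes in every library, with control libraries in blue and cKO libraries in red, each axis starting at 0, and the group mean and SD in black. The cKO libraries of Ank1 lie between 61.4 and 73.7 CPM and the control libraries between 202 and 243 CPM, while the groups of Sptbn1, Sptan1 and Epb41l2 overlap.

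In the order of their replicate numbers, the control libraries held 213, 243, 207, 202 and 214 CPM of Ank1, and the cKO libraries held 70.7, 69.0, 73.7 and 61.4 CPM. The groups were far apart, and the highest cKO library held less than the lowest control library. The control mean was 216 ± 15.9 (SD, n = 5) and the cKO mean 68.7 ± 5.25 CPM (SD, n = 4), which in log2 terms is -1.65 (SE 0.07).

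Gypc (ENSMUSG00000090523, chromosome 18, 32528322 to 32560034, minus strand) encodes glycophorin C, the membrane protein to which protein 4.1 binds in red cells, and it is made in many other cell types as well. In the same order, the control libraries held 78.9, 84.6, 89.3, 84.6 and 83.4 CPM, and the cKO libraries held 39.3, 35.6, 37.3 and 38.1 CPM. Both groups were tight, with SDs of 4.43% and 4.18% of the mean, and did not overlap. The control mean was 84.2 ± 3.73 (SD, n = 5) and the cKO mean 37.6 ± 1.57 CPM (SD, n = 4), which in log2 terms is -1.16 (SE 0.06).

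Of Epb41l4b, the control libraries held 9.81, 9.53, 9.67, 11.2 and 9.18 CPM, and the cKO libraries held 1.37, 1.17, 1.56 and 1.45 CPM. It was the scarcest of the 10 genes, and its cKO values rest on 44 to 60 reads per library against 284 to 357 in control. The control mean was 9.88 ± 0.788 (SD, n = 5) and the cKO mean 1.39 ± 0.168 CPM (SD, n = 4), which in log2 terms is -2.83 (SE 0.13).

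Among the ankyrins of the heart muscle membrane, the differences were smaller. Ank2 (chromosome 3, 126921612 to 127499350) was at 157, 165, 151, 165 and 149.7 CPM in control and at 144, 119, 139 and 127 CPM in cKO. Its groups did not overlap, although control replicate 5 and cKO replicate 1 were close, and the log2 fold change was -0.25 (SE 0.07). Ank3 (chromosome 10, 69398773 to 70027438) was at 69.6, 70.8, 64.1, 69.2 and 77.3 CPM in control and at 51.3, 53.5, 62.3 and 65.2 CPM in cKO. Here cKO replicate 4 lay above control replicate 3, and the log2 fold change was -0.27 (SE 0.09).

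The spectrins carried the bulk of the reads, and their differences were small. Sptbn1 (chromosome 11, 30099395 to 30268175), the β spectrin of most tissues outside red cells, ranged from 1237 to 1403 CPM in control and from 1343 to 1478 CPM in cKO, a log2 fold change of 0.11 (SE 0.06). Sptan1 (chromosome 2, 29965560 to 30031451), its α partner, ranged from 522 to 579 CPM in control and from 547 to 625 CPM in cKO, a change of 0.08 (SE 0.06). Sptb (chromosome 12, 76580488 to 76710547), the β spectrin of red cells and striated muscle, ranged from 118 to 134 CPM in control and from 104 to 126 CPM in cKO, a change of -0.17 (SE 0.07). The groups overlapped for all 3 spectrin genes.

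The protein 4.1 genes split by member. Epb41 (chromosome 4, 131923413 to 132075321), which encodes the protein 4.1 of red cells, was at 98.1, 104, 89.0, 91.2 and 93.2 CPM in control and at 80.7, 85.9, 84.0 and 81.6 CPM in cKO. The groups did not overlap, but the gap was narrow and the log2 fold change was -0.20 (SE 0.06). Epb41l2 (chromosome 10, 25359798 to 25523519), which encodes the widely made protein 4.1G, ranged from 109.8 to 119 CPM in control and from 116 to 133 CPM in cKO. Its groups overlapped, with a change of 0.08 (SE 0.06).

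The study's methods set 2 thresholds, 0.05 for the adjusted p and 1.5 for the fold, and a gene that passed both is termed called. By this rule 3 of the 10 membrane skeleton genes, Ank1, Gypc and Epb41l4b, were called lower in cKO, where 2.72% of all tested genes were called lower, 4.01% higher and 6.72% in either direction. None was called higher by edgeR or by DESeq2. At an unadjusted p under 0.05, 7 were lower and 0 higher, where 14.5% of all tested genes were lower and 15.2% higher. Without the fold threshold 6 were lower, the 3 above with Ank2, Ank3 and Epb41, where the shares over all genes were 8.03% lower, 8.25% higher and 16.3% in either direction. That count rested on single libraries, and leaving out each library in turn gave 3 to 5, with Ank1, Gypc and Epb41l4b among them each time. It was 3 without control replicate 2, control replicate 4 or cKO replicate 2, and 4 without control replicate 1, control replicate 5, cKO replicate 1, cKO replicate 3 or cKO replicate 4. The groups did not overlap for 5 of the 10, all lower in cKO, where the shares over all genes were 8.58% lower, 8.16% higher and 16.7% in either direction. The median log2 fold change was -0.22 over the 10 genes and 0.01 over all tested genes. These counts describe a list chosen on this contrast and are no test of it.

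**Figure D2:**
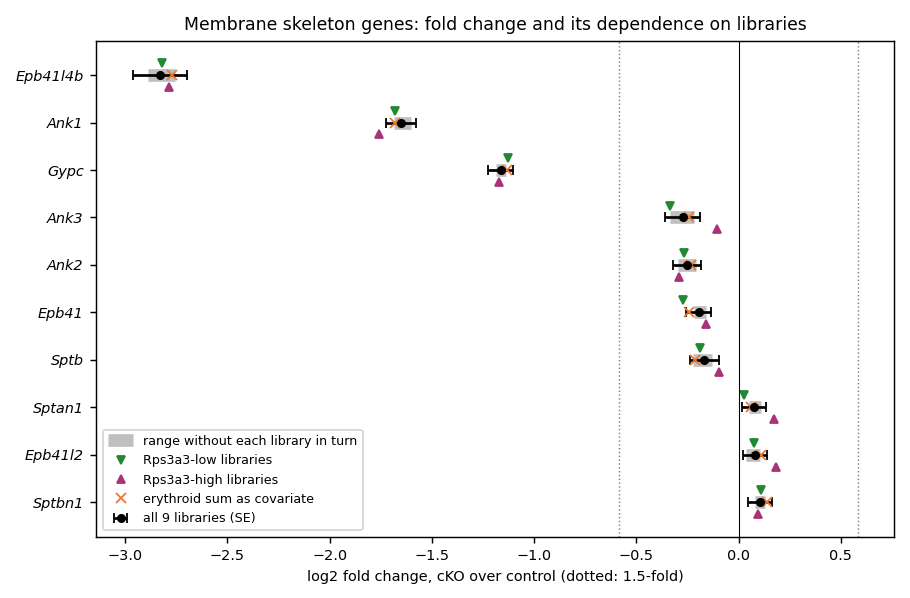
Log2 fold change of each membrane skeleton gene, cKO over control, as the fit to all 9 libraries with its SE (black), the range when each library is left out in turn (gray bar), the values in each set of libraries, Rps3a3-low or Rps3a3-high (triangles) and the value with erythroid level as a covariate (cross). The dotted lines mark 1.5-fold, and Epb41l4b, Ank1 and Gypc lie beyond the lower line under every setting drawn.

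The 3 large differences were alike within both library sets. Within the Rps3a3-low and the Rps3a3-high set the log2 fold changes were -1.68 and -1.76 for Ank1, -1.13 and -1.17 for Gypc, and -2.82 and -2.78 for Epb41l4b. The high set holds 1 cKO library, so its values have no replicate check. Ank3 was less even, at -0.33 and -0.11, and so was Sptan1, at 0.03 and 0.17.

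The split between library sets, which played no part in the choice of genes, was tested for the 10 genes in a fit with genotype and set. None of them passed an adjusted p of 0.05 by edgeR's test of the set term, where 4.81% of all tested genes passed. At an unadjusted p under 0.05, 2 of the 10 passed, where 24.5% of all tested genes did. The differences between the high and the low set ran from -0.17 for Ank1 to 0.11 for Epb41l2 on the log2 scale, with a smallest adjusted p of 0.106.

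Levels of different genes can be compared only per length, so CPM was divided by the kilobases of merged exons. In control hearts Sptbn1 stood first at 75.4 ± 3.72 CPM per kb (SD, n = 5), followed by Sptan1 at 42.0 ± 1.72, Gypc at 36.1 ± 1.60, Ank1 at 16.0 ± 1.18, Sptb at 10.5 ± 0.519, Epb41l2 at 9.73 ± 0.300, Epb41 at 5.97 ± 0.377, Ank2 at 4.50 ± 0.206, Ank3 at 2.01 ± 0.136 and Epb41l4b at 1.12 ± 0.0889. Of these neighbors in rank only Sptb and Epb41l2 overlapped between control libraries. In cKO hearts the mean order changed, with Ank1 moving from rank 4 to rank 7, at 5.08 ± 0.388 CPM per kb (SD, n = 4). Gypc kept rank 3 at 16.1 ± 0.673 CPM per kb. The lengths count every annotated exon, so a gene read mainly as a short form, such as the small Ank1, is placed too low by this scale.

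**Figure D3:**
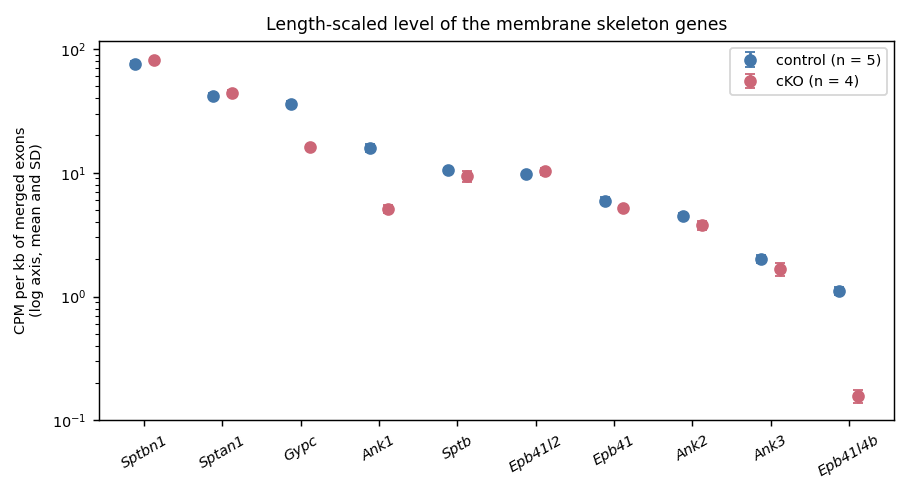
Mean CPM per kb of merged exons with SD, on a log axis, for the 10 genes in the order of their control means, control in blue (n = 5) and cKO in red (n = 4). Sptbn1 stands first in both groups, and the gaps between blue and red are widest for Epb41l4b, Ank1 and Gypc.

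On the same scale the makeup of the ankyrin and protein 4.1 families differed between the groups. Ank1 made up 71.0% ± 1.28 of ankyrin message per length in control (SD, n = 5) and 48.2% ± 2.30 in cKO (SD, n = 4). Ank2 went from 20.1% to 35.9% and Ank3 from 8.98% to 15.9% of a total that itself went from 22.5 ± 1.31 to 10.5 ± 0.586 CPM per kb, so their larger shares came with lower levels of their own. The shares rest on merged exon lengths of 13.5 kb for Ank1, 35.0 kb for Ank2 and 34.8 kb for Ank3. Without length scaling the control means were 216, 158 and 70.2 CPM, and the cKO means 68.7, 132 and 58.1 CPM. Which transcript lengths are present was not measured, so the shares do not settle which ankyrin message is the most abundant. Epb41l4b was 6.64% ± 0.536 of the 3 protein 4.1 genes in control and 1.002% ± 0.127 in cKO. The spectrin chains kept their balance, since Sptb and Sptbn1 together were at 2.05 ± 0.0726 times Sptan1 in control and 2.05 ± 0.149 times in cKO.

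Ank1, Sptb, Epb41 and Gypc are also red cell genes, and blood stays in whole ventricles, so a list of 27 red cell markers was examined, of which 26 were in the table. Their summed level ranged from 535 to 977 CPM in control and from 774 to 1184 CPM in cKO, with means of 733 ± 205 (SD, n = 5) and 905 ± 190 CPM (SD, n = 4). The log2 difference was 0.33, with an exact permutation p of 0.214 and an adjusted p over 9 lists of 0.321.

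The cKO means of the 5 red cell markers that follow lay above their control means. The α globin gene Hba-a1, whose reads may be shared with its near-identical copy, was at 134 ± 79.9 CPM in control and 188 ± 82.5 CPM in cKO. The β globin gene Hbb-bs was at 373 ± 104 and 465 ± 93.5 CPM, and the heme synthesis gene Alas2 at 40.7 ± 5.35 and 50.9 ± 7.06 CPM. Slc4a1, which encodes the red cell anion exchanger that ANK1 anchors, was at 4.75 ± 1.76 and 7.45 ± 1.31 CPM. None of these 4 passed an adjusted p of 0.05 by edgeR. Klf1, the red cell transcription factor, was at 0.0836 and 0.116 CPM, too low to be tested.

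Of the 18 red cell markers tested, 2 were called higher and 0 lower by edgeR, where 4.01% and 2.72% of all tested genes were, and the list median was 0.32. The genes that moved were chosen for naming after their values were seen. Kel, a blood group antigen gene, rose from 0.239 ± 0.0450 to 0.514 ± 0.194 CPM (adjusted p = 0.0455), and Tspan33, a tetraspanin gene, from 0.959 ± 0.372 to 1.83 ± 0.447 CPM (adjusted p = 0.0428), while Rhd, another blood group antigen gene, fell from 7.06 ± 0.567 to 5.09 ± 0.809 CPM, under the fold threshold (adjusted p = 0.0291). Without the globins the summed level was 98.9 ± 15.3 CPM in control and 99.2 ± 13.1 CPM in cKO. With the log2 summed red cell level as a covariate, the changes were -1.68 for Ank1, -1.13 for Gypc, -2.77 for Epb41l4b, -0.24 for Epb41 and -0.21 for Sptb. Ank1, Gypc and Epb41l4b remained past 1.5-fold. That summed level is mostly globin and was higher in cKO by 0.33 in log2 terms. Adjusting for a level that rises could hardly remove a fall, so the part of blood in these differences was not tested.

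Other cell types of the ventricle were summed in the same way. The 12 cardiomyocyte markers, led by Myh6, were at 88.4% of control in cKO (exact permutation p = 0.0238, adjusted p = 0.107) and the 9 fibroblast markers at 117% (exact permutation p = 0.0159, adjusted p = 0.107). Macrophage markers were at 134% and platelet markers at 109.7% of control, with adjusted exact permutation p-values of 0.271 and 0.541. The endothelial, mural, lymphocyte and Schwann and neural lists were at 96.8%, 108%, 80.0% and 105% of control, with adjusted exact permutation p-values from 0.271 to 0.881. Without the fold threshold, 4 of the 9 fibroblast markers were higher by edgeR, where 8.25% of all tested genes were, and 2 of the 12 cardiomyocyte and 2 of the 10 endothelial markers were lower, where 8.03% of all tested genes were. The genes behind these counts were named after their values were seen. The fibroblast markers were the collagen genes Col1a1 and Col1a2 with Tcf21 and Postn, at 0.33 to 0.52 on the log2 scale, the endothelial markers were Tek and Erg, both at -0.28, and the cardiomyocyte markers were Myl2, at -0.43, and Nebl, which was called lower at -0.63 (edgeR adjusted p = 0.000612). Of the 5 Schwann and neural markers tested, 1 was higher, Dbh, called at 0.61 (edgeR adjusted p = 0.0258). In whole ventricle, fewer cells of a type and less RNA per cell cannot be told apart, and the part of cell makeup in the differences of the 10 genes was not tested.

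**Figure D4:**
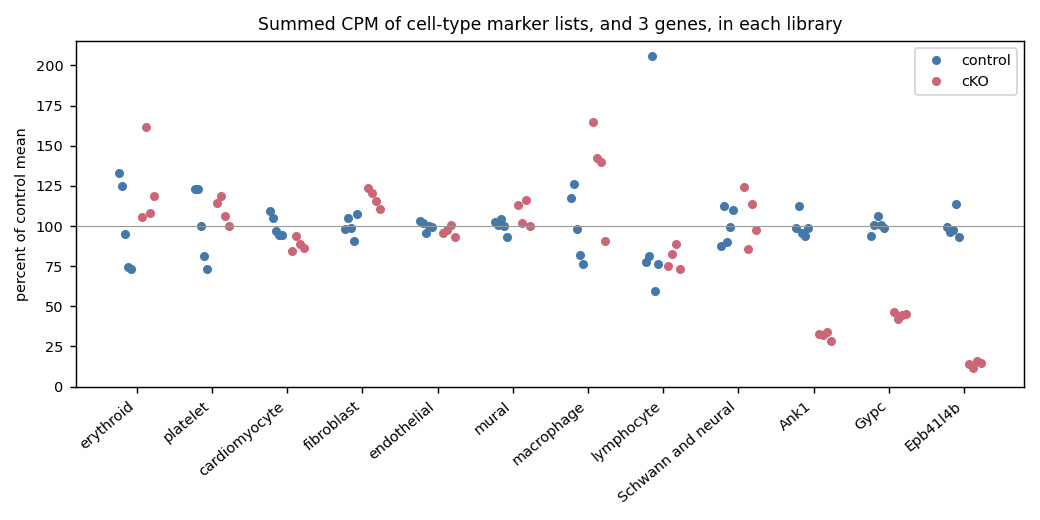
Summed CPM of each marker list, and CPM of Ank1, Gypc and Epb41l4b, in every library as percent of the control mean, with control in blue and cKO in red. The cKO libraries of the 3 genes lie below those of all 9 lists, whose means run from 80.0% of control for the lymphocyte list to 134% for the macrophage list.

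The remaining subunits of the skeleton were taken from a list of 24 genes, of which 23 were tested. By edgeR 1 was called higher and 1 lower, where 4.01% and 2.72% of all tested genes were, and the median log2 fold change was -0.09. Tmod4, a tropomodulin that caps the pointed ends of actin filaments in striated muscle, was at 5.66, 5.21, 6.70, 4.18 and 6.76 CPM in control and at 1.37, 0.848, 0.927 and 1.11 CPM in cKO, and fell by 2.42 on the log2 scale (SE 0.20, edgeR adjusted p = 1.03e-05). Sptbn5, a large β spectrin gene, was at 1.41, 1.71, 1.14, 0.944 and 1.29 CPM in control and at 3.83, 6.57, 4.58 and 4.53 CPM in cKO, and rose by 1.91 (SE 0.21, edgeR adjusted p = 9.04e-05). The groups did not overlap for either gene. GENCODE M21 gives Sptbn5 0 protein-coding transcripts.

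Without the fold threshold 2 further genes of this list were lower. Tmod1, the main tropomodulin of heart muscle, fell by 0.29 in log2 terms (SE 0.07, edgeR adjusted p = 0.0128). Epb41l5, another FERM-domain relative and chosen after its values were seen, fell by 0.44 (SE 0.10, edgeR adjusted p = 0.0119). The actin gene Actb, at 0.15 (SE 0.07), and the α adducin gene Add1, at 0.00 (SE 0.05), did not pass, with adjusted p-values of 0.21 and 0.987 by edgeR. Epb41l3, a protein 4.1 gene chosen after its values were seen, was at 31.2, 35.05, 44.0, 43.7 and 34.6 CPM in control and at 15.4, 21.9, 12.7 and 34.9 CPM in cKO. Only cKO replicate 4 reached the control range, the change was -0.83 (SE 0.28, edgeR adjusted p = 0.0793), and without that library it was -1.18 (adjusted p = 0.00198).

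Membrane and sarcomere proteins that ankyrins and spectrins hold in place, or that act beside them, formed a second list of 33 genes, 32 of them tested. By edgeR 3 were called lower and 0 higher, and without the fold threshold 7 were lower and 1 higher, with a median of -0.08. Over all tested genes 2.72% were called lower and 4.01% higher, and 8.03% and 8.25% without the fold threshold. Cmya5, which encodes the costamere protein myospryn, fell from 226 ± 18.1 to 89.2 ± 8.90 CPM, by 1.34 in log2 terms (SE 0.08, edgeR adjusted p = 9.7e-07).

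Obsl1, which encodes a cytoskeletal adaptor of muscle, was at 174, 161, 129.97, 118 and 128 CPM in control and at 85.4, 117, 78.7 and 92.4 CPM in cKO. The groups nearly touched, and the difference was -0.61 in log2 terms (SE 0.14, edgeR adjusted p = 0.0119). Its fold was close to the threshold, and it was under 1.5-fold when control replicate 1, control replicate 2, cKO replicate 1 or cKO replicate 3 was left out, at -0.52, -0.56, -0.57 and -0.53.

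Among the genes tied to Ank2, Ank3 and β spectrin, some moved by less than 1.5-fold. Gja1, the connexin of ventricular gap junctions, fell by 0.31 in log2 terms (SE 0.06, edgeR adjusted p = 0.00536). The next 3 were chosen after their values were seen. Camk2d, a calcium-dependent kinase, fell by 0.40 (SE 0.07, adjusted p = 0.00147), and Ppp2r5a, a phosphatase subunit that binds ankyrin-B, by 0.53 (SE 0.07, adjusted p = 0.000259), both by edgeR. The potassium channel gene Kcnk2 rose by 0.53 (SE 0.11, edgeR adjusted p = 0.00617), and by 0.60, past 1.5-fold, without control replicate 2. Without cKO replicate 1, Ppp2r5a was also past 1.5-fold, at -0.59.

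The tested genes within 250 kb of Ank1, Gypc and Epb41l4b were compared to see how far each difference reached along its chromosome. Around Ank1 7 genes were tested, and the 6 that lie outside it had log2 fold changes of -0.06 to 0.10, with none past an adjusted p of 0.05. Inside Ank1, on the opposite strand, lies the noncoding gene Gm15816 (chromosome 8, 23138794 to 23149585), which spans the start of the small ankyrin form. It was at 1.24 ± 0.326 CPM in control and 2.13 ± 0.355 CPM in cKO, called higher at 0.78 in log2 terms (SE 0.22, edgeR adjusted p = 0.0329), although the groups overlapped. The call was lost when control replicate 3, 4 or 5 or cKO replicate 1, 2 or 3 was left out, with edgeR adjusted p-values from 0.0617 to 0.0978. Whether the authors' counting used the strand is not given in the sources used here, so its reads and those of Ank1 are uncertain where they overlap.

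The microRNA gene Mir486 (chromosome 8, 23142555 to 23142682) also lies within Ank1 and held 2 to 11 reads per control library and 0 to 2 per cKO library, too few to test. Such reads in a library of long polyadenylated RNA do not measure the mature microRNA. Near Gypc 1 gene was tested, Bin1, at 0.10 (SE 0.09, edgeR adjusted p = 0.482).

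Around Epb41l4b 7 genes were tested. Tmem245 (chromosome 4, 56866923 to 56947437), 44.5 kb away, fell from 169.9 ± 13.0 to 115 ± 13.7 CPM, by 0.56 in log2 terms (SE 0.09, edgeR adjusted p = 0.000993). This is under 1.5-fold, and without control replicate 1 or cKO replicate 3 it was past it, at -0.60 and -0.62. The noncoding gene Gm12530 (chromosome 4, 57172071 to 57176554), 28.6 kb upstream on the other strand, held 12 to 23 reads in each control library and 1 read in all cKO libraries together. The cKO to control ratio of its reads was 0.0139, with an exact 95% interval of 0.000349 to 0.0799 that covers counting error only. Frrs1l (chromosome 4, 56957173 to 56990391), the nearest neighbor at 1.58 kb, held 7 to 13 reads per control library and 1 to 5 per cKO library, too few to test. Its levels were 0.283 and 0.0879 CPM and the groups did not overlap. The other 5 tested neighbors had log2 fold changes of -0.29 to 0.10, and none passed.

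**Figure D5:**
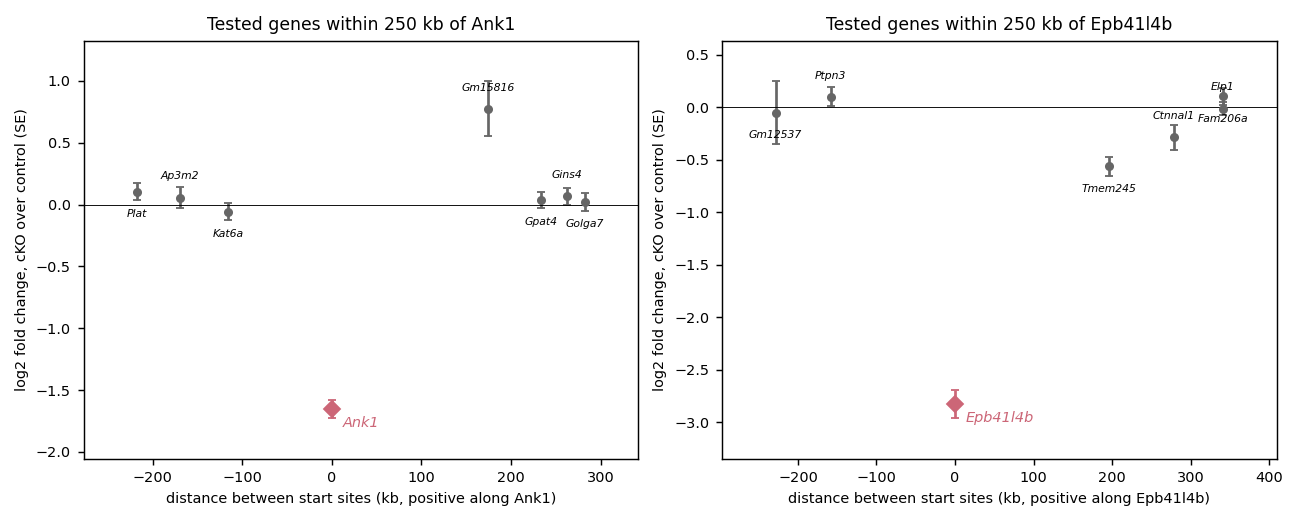
Log2 fold change with SE of tested genes within 250 kb of Ank1 (left) and Epb41l4b (right), against the distance between start sites in kb, with the named gene as a red diamond. Ank1 at -1.65 and Epb41l4b at -2.83 stand below the neighbors drawn, and Gm12530, with 1 read in cKO, is not drawn because its fitted fold is not usable.

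The genes whose pattern over the 9 libraries lay closest to that of Ank1, Gypc and Epb41l4b were found by the mean absolute difference between log2 profiles, each set to 0 at its control mean, among 11063 genes with a mean of at least 5 CPM. Nearest to Ank1 were Smim5, Cyfip2 and Hlf, at mean differences of 0.07, 0.12 and 0.12. Hlf is a PAR bZIP transcription factor and Cyfip2 a part of the actin-regulating WAVE complex. Nearest to Gypc were Fitm2, a lipid droplet gene, with Entpd5 and Slc37a1, at 0.08, 0.09 and 0.09. Nearest to Epb41l4b were Rap1gap2, a GTPase activator of Rap1, with Gm15543 and Plekhh1, at 0.20, 0.26 and 0.29. With each profile set to 0 at its control mean, the distance largely follows the cKO difference, on which these 3 genes were chosen. The nearest genes were thus genes of like fold, with log2 fold changes of -1.60 for Smim5, -1.28 for Fitm2 and -3.04 for Rap1gap2. None of the genes found is a membrane skeleton gene on the lists used here, and a search over so many genes finds close profiles in any case.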

How the data were processed

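RNA of 5 control and 4 cKO ventricles was measured by poly(A)-selected, stranded, single-end 75-base sequencing. The authors deposited raw read counts per Ensembl gene, made on mm10. The submitters' processing notes name STAR 2.4.2a and HTSeq 0.6.1, while the annotation release and the strand setting are not given in the sources used here. All 9 columns matched a library by title, and 0 other sample columns were present. Of 38293 identifiers, 36429 were found in GENCODE M21 (GRCm38, the assembly of mm10), which gave symbols, coordinates and exon lengths. Sequences were read from GENCODE M21 transcripts.

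Low genes were removed with filterByExpr (minimum count 10), and the rest were tested with edgeR 4.0.16 in R 4.3.3 (TMM scaling, robust quasi-likelihood F test, genotype as the only term), with Benjamini-Hochberg adjustment over 15318 genes. Each SE is the size of the log2 fold change over the square root of its F. The script was tested on simulated data. Marker sums were compared as log2 CPM by two-sided exact permutation tests over 126 splits, which can give no p below 0.00794, adjusted over 9 lists. The authors' test, DESeq2 (version 1.42.0 here), was an alternative. The other alternatives were RLE and upper-quartile scaling, 2 other filters, the replicate number as a block, library set as a term (cut at 10 CPM of Rps3a3), the low and the high set alone, no fold threshold, the red cell list without globins, the red cell level as a covariate, and each library left out in turn.

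The 10 genes, the gene lists and the library sets were chosen with earlier results of these data known. Named from the lists were called genes, up to 6 each, and the 3 most abundant genes not called, with neighbors past an adjusted p of 0.05 and the 3 nearest profiles. Counting error alone limits genes of few reads. Some genes of the lists and 1 coding start are counted but not reported here by name.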

Additional observations from a re-analysis of the deposited data

Results flagged for a closer look

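Of 38 groups of libraries examined, covering the 10 membrane skeleton genes and 9 marker sums in each group, 3 held a library that stood apart from the rest by Dixon's test, where chance alone gives about 1 in 20. Ank1 was highest in control replicate 2, at 243 CPM against 202 to 214 CPM in the other control libraries, and without that library its log2 fold change was -1.61. Sptan1 was lowest in control replicate 3, at 522 CPM, and that library also held the highest summed level of lymphocyte markers, 13.1 CPM against 3.77 to 5.18 CPM in the other controls. The cKO libraries held 4.67 to 5.65 CPM of lymphocyte markers.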

How the results depend on the processing

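Ank1, Gypc and Epb41l4b were the 3 membrane skeleton genes called lower, with 0 called higher, in each of the 18 fits that changed the scaling, filter, test, covariates or libraries, and leaving out each library in turn gave 3 lower and 0 higher. Dropping the fold threshold gave 6 lower over all libraries, and 3 to 6 over these fits (3 with the replicate block). Over the fits and the Rps3a3-high set the log2 fold change ran from -1.76 to -1.60 for Ank1, from -1.19 to -1.13 for Gypc and from -2.89 to -2.75 for Epb41l4b, and none of the 10 genes changed sign. With the replicate number as a block the changes were -1.66, -1.17 and -2.86; same-numbered libraries deviated together at correlations of 0.02, 0.04, 0.01 and 0.23, so the numbers were not taken as pairs. Over all genes 1030 were called, 620 in the Rps3a3-low set alone, and 909 to 1171 without each library. Arid1a missed an adjusted p of 0.05 only in the low set (-0.33, adjusted p = 0.0822 by edgeR). Add1 changed sign around 0, to 0.0121 under upper-quartile scaling, 0.00633 with a mean of at least 1 CPM, 0.00997 with the replicate block, 4.23e-06 with the library set as a term, and from -0.0142 to 0.0122 without each library. In the low set alone Camk2d, Gja1, Kcnk2, Epb41l5 and Tmem245 missed 0.05 with edgeR adjusted p-values from 0.065 to 0.344, and Epb41l3 passed in some fits. Epb41l5 also missed 0.05 with the replicate block (-0.42, edgeR adjusted p = 0.0652). Gm15816 missed 0.05 in 9 of 18 fits, among them 6 that left out a library (adjusted p from 0.0617 to 0.0978). Fewer libraries entered the low-set fits, and the causes of the other shifts were not tested.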
